A study of Homo sapiens with 8 samples.

Results

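The 10 genes described here encode the 5 NF-kappaB subunits (RELA, RELB, REL, NFKB1 and NFKB2), the 3 classical I-kappaB inhibitors (NFKBIA, NFKBIB and NFKBIE) and 2 feedback regulators of the pathway, TNFAIP3 and BIRC3. The rule that defines the group is a list of gene symbols, and all 10 were found among the 16796 genes of the series. Messenger RNA was sequenced from LX-2 cells, an immortalized human line of activated hepatic stellate cells that serves as a model of myofibroblastic HSCs (MF-HSCs). The control group held 4 libraries from cells given DMSO vehicle, and the OGTi group held 4 libraries from cells given 50 µM OSMI-1 for 24 h. OSMI-1 inhibits O-GlcNAc transferase (OGT), the enzyme that places the sugar O-GlcNAc on serine and threonine residues of intracellular proteins. Cells of both groups grew in medium with 5% serum, no cytokine was named among the treatments, and the 4 replicates of a group are independent experiments with the same cell line, so the spread given below is that between experiments and not between people. The comparison asks whether inhibition of OGT for 24 h altered transcript amounts of the NF-kappaB core machinery.

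Libraries held 24166756 to 28201215 counts. OSMI-1 acts on the OGT protein, so the mRNA of the enzyme is no check of the labels. Transcripts of OGT fell from 5636 ± 260 normalized counts in control cells to 4146 ± 477 in OGTi cells, and those of its counterpart OGA, which removes the sugar, fell from 3159 ± 423 to 904 ± 85.3 (mean ± SD, n = 4). Of 13 markers of stellate cells and myofibroblasts, 9 reached 1 TPM (a level scaled for transcript length and depth), whereas the quiescence and lineage markers LRAT, DES and HAND2 were at or near 0. Of 4 macrophage and leukocyte markers in the files, 3 reached 1 TPM, and their sum ranged from 150 to 236 TPM in control and from 331 to 569 TPM in OGTi libraries, mainly through CD68 (mean counts of 3154 and 7972.5), while the leukocyte-defining PTPRC averaged 7.2 and 3.0 counts. In such bulk libraries a smaller number of expressing cells and less RNA per cell cannot be told apart.

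NF-kappaB is a family of dimeric transcription factors built from Rel proteins, which share a domain for DNA binding and dimerization. In resting cells I-kappaB proteins hold the dimers in the cytoplasm. Kinases of the IKK complex mark I-kappaB for destruction, the dimers enter the nucleus, and among the first genes they switch on are those of their own inhibitors, which ends the response. In activated stellate cells the pathway is known for its part in inflammatory gene expression and cell survival, and RELA and REL belong to the proteins known to carry O-GlcNAc.

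Most promoters of the group share a sequence feature, the kappaB motif. The list of symbols used no sequence, but it holds known targets of NF-kappaB. The share of genes with a motif is therefore a description and no independent finding. The kappaB consensus motif of 10 bases, to which NF-kappaB dimers bind, was searched on both strands, overlapping matches included, in RefSeq promoter windows of GRCh38.p14 (hg38) that run from 250 bases before a transcription start to 50 bases from it. Of the 10 genes, 8 are in that table, with 13 windows, and NFKBIE and RELB are not. At least 1 match was found for 7 of the 8 genes, in 8 of their 13 windows, whereas 11.3% of all 35116 windows and 13.3% of all 27305 gene symbols held a match. The 5 stretches of 150 bases shown here stand for the inhibitor that fell, for 2 feedback genes and a subunit that did not pass the test, and for the subunit without a match. The stretch of RELA is from a window upstream of the annotated gene. Its other window, at chr11:65662867-65663166, covers the annotated start of the gene and is not shown. They are written 5′ to 3′ on the strand of the gene, matches are in capitals, and they lie at chr14:35404750-35404899 (minus strand, NFKBIA), chr6:137867109-137867258 (plus, TNFAIP3), chr11:102317234-102317383 (plus, BIRC3), chr4:102501209-102501358 (plus, NFKB1) and chr11:65663858-65664007 (minus, RELA).
NFKBIA: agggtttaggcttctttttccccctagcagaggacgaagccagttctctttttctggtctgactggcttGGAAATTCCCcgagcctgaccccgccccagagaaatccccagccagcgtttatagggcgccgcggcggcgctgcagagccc
TNFAIP3: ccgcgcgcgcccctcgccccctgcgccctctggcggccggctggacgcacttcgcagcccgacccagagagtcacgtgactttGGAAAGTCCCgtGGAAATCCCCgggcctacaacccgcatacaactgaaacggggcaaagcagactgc
BIRC3: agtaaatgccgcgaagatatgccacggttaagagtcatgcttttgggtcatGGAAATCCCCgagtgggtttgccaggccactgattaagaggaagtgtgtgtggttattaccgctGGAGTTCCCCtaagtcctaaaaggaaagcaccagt
NFKB1: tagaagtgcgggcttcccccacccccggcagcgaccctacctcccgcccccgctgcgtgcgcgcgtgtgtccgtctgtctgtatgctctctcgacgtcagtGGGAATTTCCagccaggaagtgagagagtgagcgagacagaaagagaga
RELA: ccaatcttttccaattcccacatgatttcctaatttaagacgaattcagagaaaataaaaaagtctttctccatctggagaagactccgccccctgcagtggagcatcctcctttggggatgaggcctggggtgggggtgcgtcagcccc

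The match in NFKBIA began 81 bases before the start and read as the motif on the opposite strand. TNFAIP3 held a pair of such matches, 67 and 55 bases before the start, and BIRC3 held a pair 199 and 135 bases before it. NFKB1 carried a match on its own strand 49 bases before the start, and its other window held none. REL carried a match 47 bases before the start that overlapped another on the opposite strand. NFKB2 had matches in 2 of its 3 windows, the closest 21 bases before a start, and NFKBIB had them in 1 of its 2 windows, the closest 27 bases before it. For both NFKB2 and NFKBIB the window that covers the annotated start of the gene held no match. Their matches belong to windows of starts further inside the gene. A match in at least 1 window was thus found among inhibitors, subunits and feedback regulators, though not always at the annotated start, while the 2 windows of RELA held none. Across all genes of the series with a window and a test result, 49.3% of 1891 genes with a match and 47.2% of 9024 genes without were called changed. By direction, 27.3% of genes with a match were called lower and 22.0% higher, beside 24.0% and 23.2% of genes without. The median log2 fold change was -0.03 with a match and 0.01 without, and the difference was not tested. Of the 7 genes of the group with a match, only NFKBIA was called.

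NFKBIE was the gene of the group with the largest change under OGTi, and it rose, whereas its relative NFKBIA fell by a smaller amount. None of the 5 subunits passed the test, nor did NFKBIB, TNFAIP3 and BIRC3. Genes were compared with the Wald test of DESeq2 with replicate number as a block, and called at a Benjamini-Hochberg adjusted p (q) of 0.05 or lower. Thus 2 of the 10 genes (20%) were called, beside 46.6% of the 14028 genes of the series with a q, with 1 gene higher (background 22.7%) and 1 lower (background 24.0%). The same 2 genes had an unadjusted p under 0.05. Normalized counts (counts divided by the library's size factor) of the 4 control and the 4 OGTi libraries did not overlap for NFKBIE, NFKBIA and RELB, that is for 3 of 10 genes beside 38.0% of all genes tested. OGTi was on the same side of control in all 4 pairs for NFKBIE, NFKBIA, RELB and BIRC3, that is for 4 of 10 genes beside 55.9%. Pairs follow the replicate number, and the library correlations given below do not bear out the pairing of replicates 3 and 4. This limits every count of pairs given for single genes, except where the groups do not overlap. The median log2 fold change of the group was 0.04 (0.005 over all genes tested) and its median absolute log2 fold change was 0.18 (0.33 over all genes tested).

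**Figure D1:**
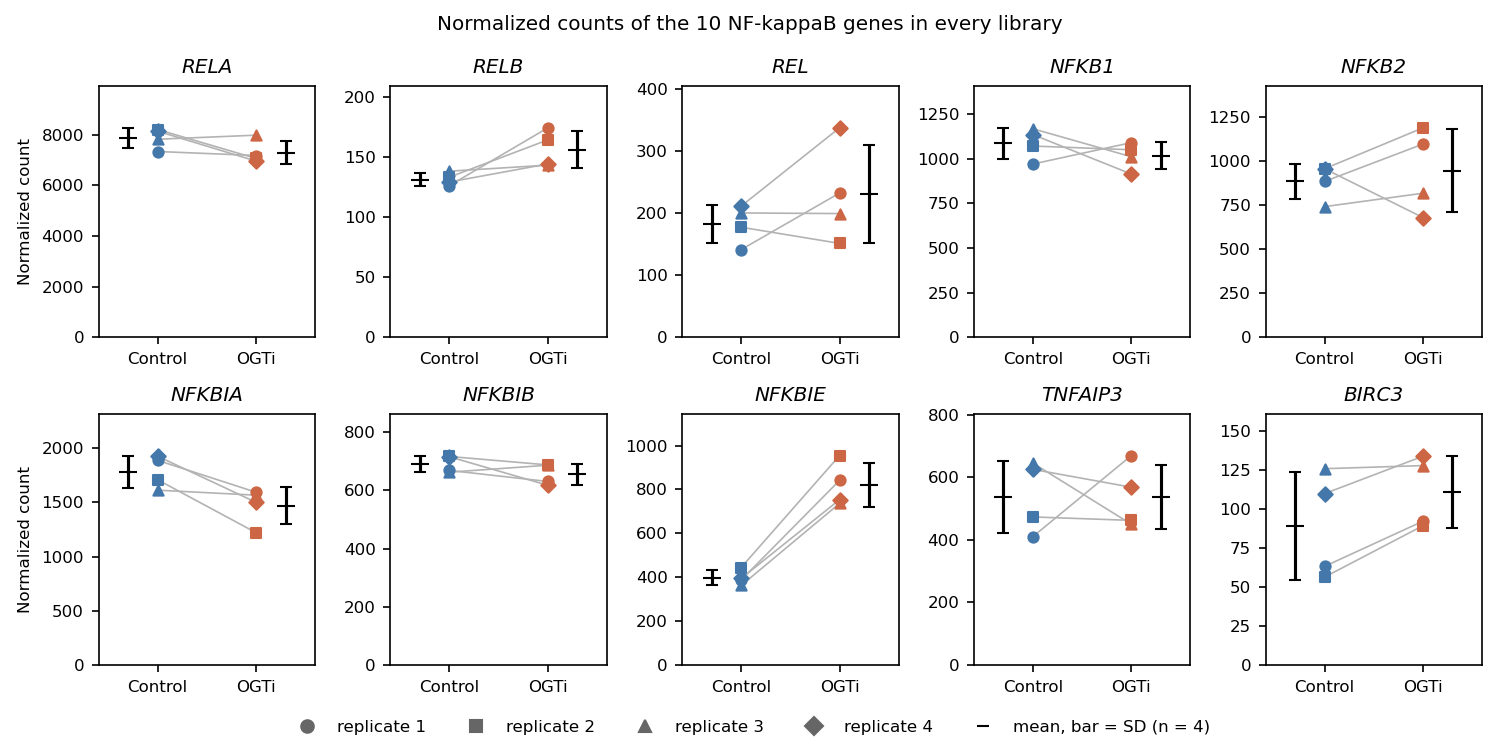
Normalized counts (y axis, starting at 0, separate scale per gene) of the 10 genes in each control (blue) and OGTi (orange) library, with lines joining libraries of the same replicate number and black bars giving mean ± SD (n = 4). For NFKBIE the OGTi libraries lie at 736 to 954, all above the control libraries at 362 to 444, and for NFKBIA they lie at 1220 to 1593, all below 1612 to 1925.

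RELA encodes p65, the subunit with a transactivation domain that pairs with p50 in the most common dimer, and its gene lies at chr11:65653599-65663090 on the minus strand. Its normalized counts were 7341, 8209, 7826 and 8143 in control replicates 1 to 4 and 7183, 7067, 7987 and 6962 in OGTi replicates 1 to 4. The OGTi library was lower in 3 of 4 pairs and slightly higher in replicate 3, and the groups overlapped. The means were 7880 ± 396 and 7300 ± 467, a log2 fold change of -0.11 ± 0.07 (SE) with a DESeq2 q of 0.207. The 95% interval of the ratio of OGTi to control ran from 0.839 to 1.02, so a decrease to below 0.839 times the control level lies outside it.

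NFKB1 (chr4:102501330-102617302, plus strand) encodes p105, the precursor of p50, and NFKB2 (chr10:102394110-102402524, plus strand) encodes p100, the precursor of p52 and itself an inhibitor of RELB. For NFKB1 the control libraries held 971, 1072, 1169 and 1136 normalized counts and the OGTi libraries 1091, 1051, 1012 and 915, with a log2 fold change of -0.09 ± 0.10 (q of 0.483). The groups overlapped, and replicate 1 was the only pair in which OGTi was higher. For NFKB2 the values were 884, 956, 741 and 956 in control and 1096, 1188, 817 and 679 in OGTi, with a log2 fold change of 0.07 ± 0.13 (q of 0.688). OGTi was higher in replicates 1 to 3 and lower in replicate 4, where the log2 ratio of the pair was -0.49, and the SD of the OGTi group (237) exceeded that of the control group (101). Without replicate 4 the log2 fold change of NFKB2 was 0.26, and without replicate 1 or replicate 2 it was -0.0088 and -0.01, so the sign of this change depended on single replicates.

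RELB (chr19:45001461-45038192, plus strand), the partner of p52 in the non-canonical pathway, was measured at 126, 133, 138 and 129 normalized counts in control and at 174, 164, 143 and 144 in OGTi. Every OGTi library was above every control library, although OGTi replicates 3 and 4 lay close to the highest control value. The means were 131 ± 5.32 and 156 ± 15, the ratio was 1.19 (95% interval 0.907 to 1.55), and the gene did not pass the test (log2 fold change 0.25 ± 0.20, q of 0.319). The q of RELB ranged from 0.182 to 0.621 over the alternatives.

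REL (chr2:60881491-60931612, plus strand) encodes c-Rel, a subunit best known from lymphocytes. It gave 141, 177, 200 and 211 normalized counts in control and 232, 151, 199 and 337 in OGTi. OGTi was well above control in replicates 1 and 4 (log2 ratios of the pairs 0.71 and 0.67), below it in replicate 2 (-0.23) and level with it in replicate 3 (-0.01). The log2 fold change of 0.29 ± 0.20 did not pass the test (q of 0.227). REL was also the only gene of the group with fractional expected counts, in 6 of 8 libraries, meaning that some of its reads were shared with other loci. Over the 5 subunits, none was called in any of the 11 alternative analyses, and their 95% intervals of the ratio reached from 0.813 (NFKB1) to 1.61 (REL).

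**Figure D2:**
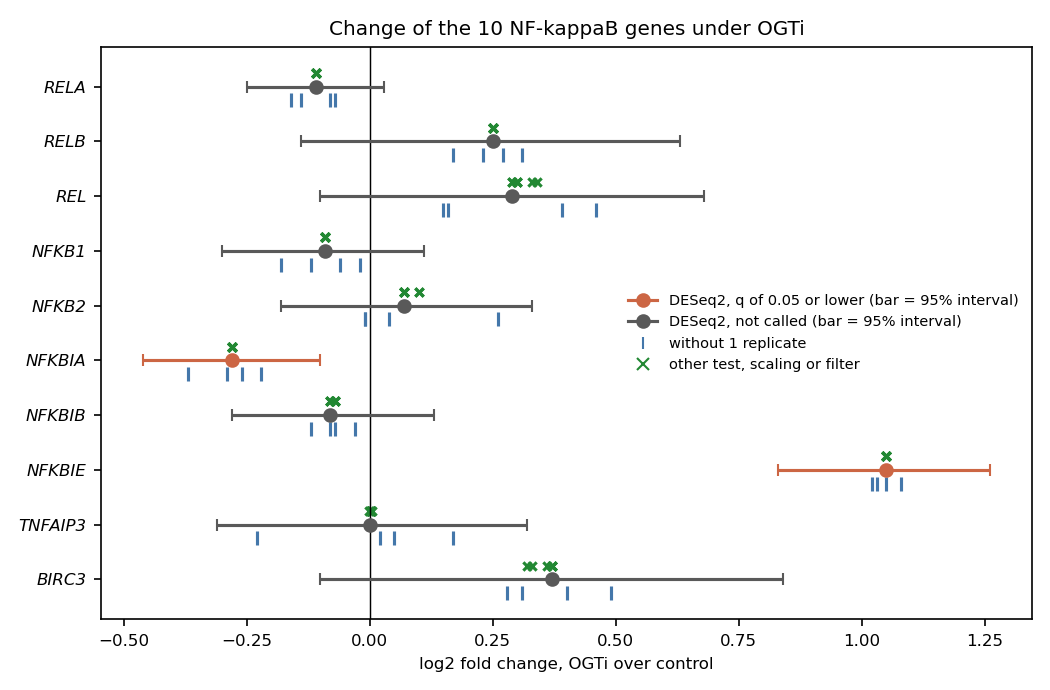
Log2 fold change of OGTi over control (x axis) for the 10 genes, with 95% intervals of the DESeq2 fit, blue ticks for fits that leave out 1 replicate number and green crosses for another test, scaling or filter. NFKBIE stands at 1.05 with all alternatives between 1.02 and 1.08, NFKBIA at -0.28 with alternatives from -0.37 to -0.22, and the intervals of the other 8 genes include 0.

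NFKBIE encodes I-kappaB epsilon, an inhibitor whose gene is itself induced by NF-kappaB and which restrains RELA and c-Rel dimers. The gene has 6 exons at chr6:44258166-44265788 on the minus strand. Its normalized counts were 387, 444, 362 and 394 in control and 841, 954, 736 and 753 in OGTi. The lowest OGTi library was far above the highest control library, and the log2 ratios of the 4 pairs were close to each other, at 1.12, 1.10, 1.02 and 0.93. The means were 397 ± 34.5 and 821 ± 99.8, a log2 fold change of 1.05 ± 0.11 or 2.07-fold (95% interval 1.78 to 2.40, q of 4.49e-20). The call held in 11 of 11 alternative analyses. NFKBIE was among 1200 called genes that changed at least 2-fold in either direction, and its absolute Wald statistic was larger than that of 96.1% of genes.

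NFKBIA encodes I-kappaB alpha, the fast feedback inhibitor that strips NF-kappaB from DNA and returns it to the cytoplasm. Its 6 exons lie at chr14:35401079-35404749 on the minus strand. Normalized counts were 1887, 1708, 1612 and 1925 in control and 1593, 1220, 1566 and 1500 in OGTi. The groups did not overlap, but the highest OGTi value came close to the lowest control value, and OGTi replicate 2 lay well under the others. The mean was 1783 ± 148 in control and 1470 ± 171 in OGTi, so the ratio was 0.822 (95% interval 0.725 to 0.933) and the log2 fold change -0.28 ± 0.09 (q of 0.00665), with OGTi lower in 4 of 4 pairs. The call depended on replicates 2 and 4: the log2 fold change was -0.22 with a q of 0.121 without replicate 2, and -0.26 with a q of 0.0772 without replicate 4.

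NFKBIB (chr19:38899700-38908893, plus strand) encodes I-kappaB beta, the inhibitor known for slower turnover and for weak dependence on NF-kappaB itself. Its control libraries held 669, 717, 663 and 716 normalized counts and its OGTi libraries 631, 688, 687 and 618. The groups overlapped widely. The ratio of OGTi to control was 0.949 (95% interval 0.821 to 1.10, log2 fold change -0.08 ± 0.11, q of 0.593). The 3 inhibitors therefore gave a rise, a fall and a gene that did not pass the test.

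TNFAIP3 encodes A20, an enzyme that edits ubiquitin chains on signalling adaptors and so shuts off IKK activation, and its gene lies at chr6:137867214-137883314 on the plus strand. Its normalized counts were 410, 473, 645 and 625 in control and 669, 462, 450 and 568 in OGTi. The highest value of all was OGTi replicate 1, whose control partner was the lowest of all, whereas in the other 3 pairs OGTi was lower. The group means were 538 ± 115 and 537 ± 103, and the ratio was 1.0 with a 95% interval of 0.804 to 1.25 (q of 0.994). Without replicate 1 the log2 fold change was -0.23 (q of 0.226), so this near-zero mean change combined pairs of opposite sign.

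BIRC3 (chr11:102317484-102339403, plus strand) encodes cIAP2, a ubiquitin ligase that joins the receptor complexes of tumour necrosis factor and is itself a target of NF-kappaB. Normalized counts were 63.3, 56.4, 126 and 110 in control and 92.3, 89.4, 128 and 134 in OGTi. In both groups replicates 3 and 4 were higher than replicates 1 and 2, and OGTi exceeded control within each pair, with log2 ratios of 0.54, 0.66, 0.02 and 0.28. The means of 89.1 ± 34.5 and 111 ± 23.4 gave a log2 fold change of 0.37 ± 0.24 that did not pass the test (q of 0.208, 95% interval of the ratio 0.932 to 1.79). BIRC3 had the lowest mean count of the 10 genes in either group, and its q ranged from 0.114 to 0.491 over the alternatives.

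Levels of different genes were compared per transcript length, as TPM computed from the counts and the length of the canonical GENCODE 44 transcript. In control cells RELA was the most abundant transcript of the group at 313 ± 17.8 TPM, above 96.6% of genes, followed by the inhibitors NFKBIA at 114 ± 7.84 and NFKBIB at 57.9 ± 2.52. NFKB2 (29.3 ± 3.23) and NFKB1 (26.8 ± 2.31) came next and overlapped between libraries. NFKBIE stood at 16.9 ± 1.57 TPM, TNFAIP3 at 11.5 ± 2.48 and RELB at 5.82 ± 0.316, each without overlap with its neighbours in the order. REL (1.64 ± 0.279) and BIRC3 (1.29 ± 0.504) were the scarcest and overlapped. In OGTi cells the order was kept except that NFKBIE, at 36.1 ± 3.54 TPM, moved from rank 6 to rank 4, above NFKB2 (32.2 ± 7.36, with overlapping libraries) and NFKB1 (25.9 ± 1.49).

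**Figure D3:**
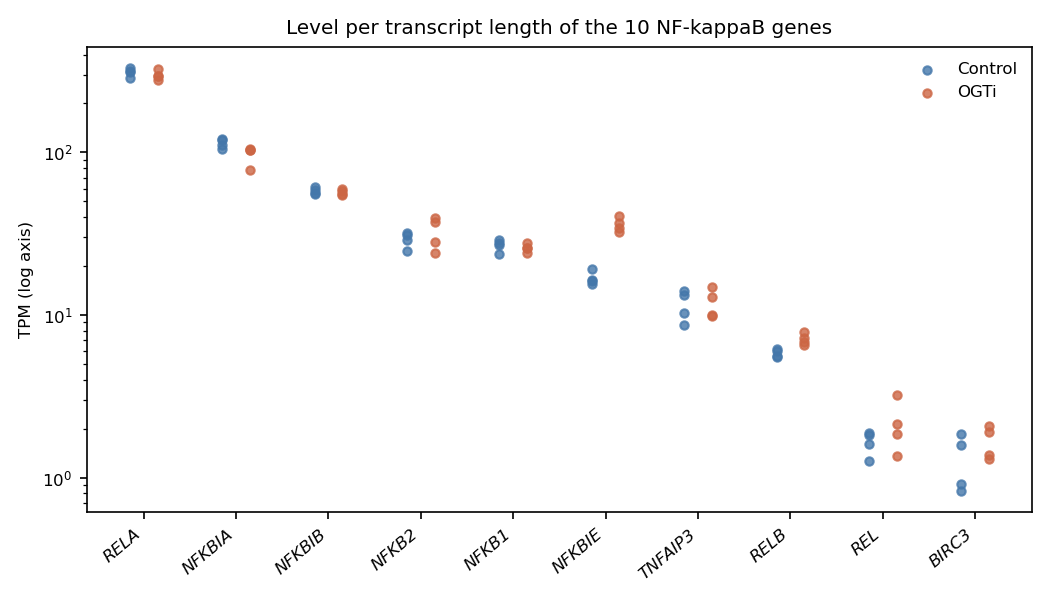
Level of each gene in TPM (y axis, log scale) in the 4 control (blue) and 4 OGTi (orange) libraries, ordered by the control mean. RELA leads at 280 to 330 TPM over the 8 libraries, REL and BIRC3 lie lowest, and NFKBIE is the gene whose OGTi libraries stand clearly above its control libraries.

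Among the subunits, RELA made up 83.1% ± 0.338 of the summed TPM in control libraries and 81.6% ± 2.56 in OGTi libraries. The sum of the 5 subunits was 376 ± 21 TPM in control and 367 ± 17.5 TPM in OGTi, and that of the 3 inhibitors was 189 ± 8.79 and 190 ± 9.49. The 2 groups of libraries thus overlapped in total subunit and total inhibitor transcript, and inhibitor per subunit was 0.503 ± 0.0365 in control and 0.519 ± 0.0227 in OGTi. The make-up of the inhibitor pool differed. NFKBIE gave 8.52%, 10%, 8.85% and 8.39% of inhibitor TPM in control replicates 1 to 4 and 18.8%, 23.0%, 16.6% and 17.8% in OGTi. NFKBIA gave 60.4% ± 2.05 in control and 51.0% ± 4.5 in OGTi, with OGTi replicate 2 lowest at 44.3%. For either gene the 4 OGTi libraries did not overlap the 4 control libraries in this share. Without division by length, as CPM (counts scaled to the library total alone), the NFKBIE share was 13.8% in control and 27.9% in OGTi. These shares are descriptions without a test, since they combine the changes given above.

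**Figure D4:**
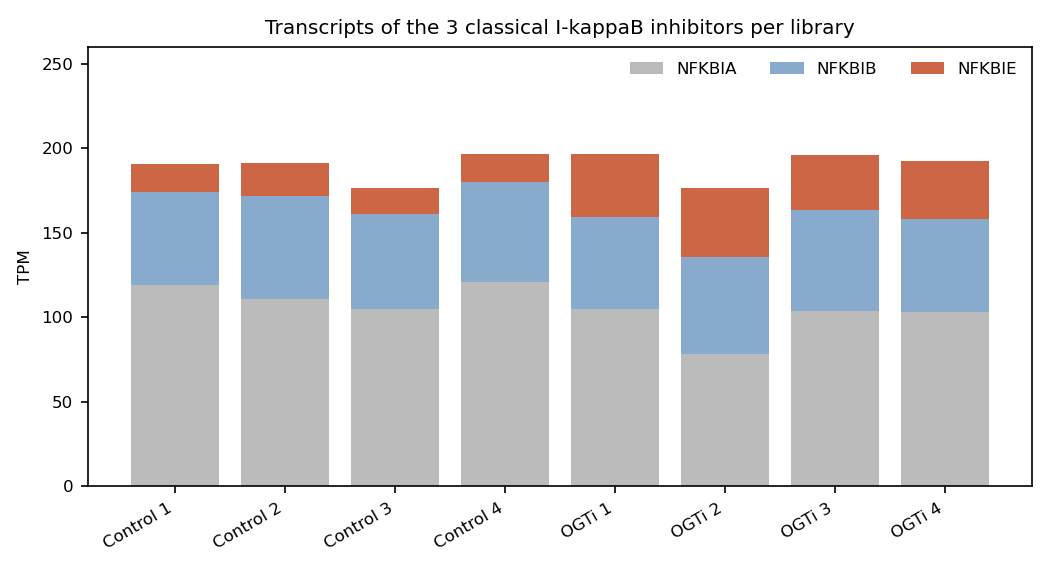
TPM (y axis, from 0) of NFKBIA (grey), NFKBIB (blue) and NFKBIE (orange), stacked for each of the 8 libraries. The height of the stack, 176 to 197 TPM, overlaps between the groups, while the NFKBIE segment is larger in each of the 4 OGTi libraries.

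Beyond the core group, 110 further genes of the pathway were listed in 6 sets by role, of which 96 had a q. DESeq2 called 29 of them higher and 19 lower under OGTi (30.2% and 19.8%), together 50.0%, beside 22.7% higher, 24.0% lower and 46.6% in all over the genes of the series, with a median log2 fold change of 0.11. The set of atypical I-kappaB proteins, which act mostly in the nucleus, held 5 genes. Among them was NKRF, a repressor of NF-kappaB that is not itself an I-kappaB protein. In this set BCL3, a partner of p50 and p52 homodimers, fell from 329 ± 31.5 to 118 ± 8.45 normalized counts (log2 fold change -1.47 ± 0.16, q of 9.67e-18). NFKBIL1 rose from 336 ± 40.3 to 530 ± 50.1 (q of 8.13e-07), and the other 3 were not called.

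Of 16 genes of the IKK complex and its upstream kinases, 6 rose, 2 fell and 8 were not called (22.7% higher and 24.0% lower over all genes), and the falls were called only with the replicate block. MAP3K3 rose with a log2 fold change of 0.70 ± 0.07, IRAK4 with 0.42 ± 0.10 and RIPK1 with 0.34 ± 0.08. Of 19 adaptors and ubiquitin enzymes, 6 rose and 6 fell (same shares over all genes), and 3 rises were called in each fit that left out a replicate. TRAF5 fell by 0.93 ± 0.18 and UBE2V1, which helps build the ubiquitin chains of the pathway, fell by 0.45 ± 0.07 on the log2 scale. BIRC2, the close paralog of BIRC3, fell by 0.42 ± 0.09 (q of 6.17e-06), lower in 4 of 4 pairs although its groups overlapped, whereas BIRC3 was higher in 4 of 4 pairs without passing the test, and the difference between the paralogs was not tested. Of the 14 deubiquitinases and other brakes tested besides TNFAIP3, 2 rose, 1 fell and 11 were not called (same shares over all genes), and the rises of OTULIN (log2 fold change 0.23 ± 0.08) and ZC3H12A (0.35 ± 0.15) lost their calls without replicate 1, 3 or 4, and that of ZC3H12A also without replicate 2. PDLIM2, which promotes the breakdown of RELA, fell by 0.70 ± 0.12, with control replicate 1 well above the other control libraries.

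Of 16 receptors and ligands tested, 6 rose and 2 fell (22.7% and 24.0% over all genes), with a median log2 fold change of 0.31. The largest Wald statistics were those of TNFSF12 (TWEAK), a ligand of the non-canonical pathway, which fell by 1.88 ± 0.12 on the log2 scale, and of the receptors TNFRSF1B and LTBR, with log2 fold changes of 0.93 ± 0.08 and 0.57 ± 0.08. Of 26 transcriptional targets with a q, 8 rose, 7 fell and 11 were not called (22.7% and 24.0% over all genes), with a median log2 fold change of 0.11. ICAM1, an adhesion molecule, and PTX3, a secreted pattern recognition protein, rose with log2 fold changes of 1.13 ± 0.09 and 1.12 ± 0.10, while F3 (tissue factor) fell by 1.68 ± 0.08 on the log2 scale.

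**Figure D5:**
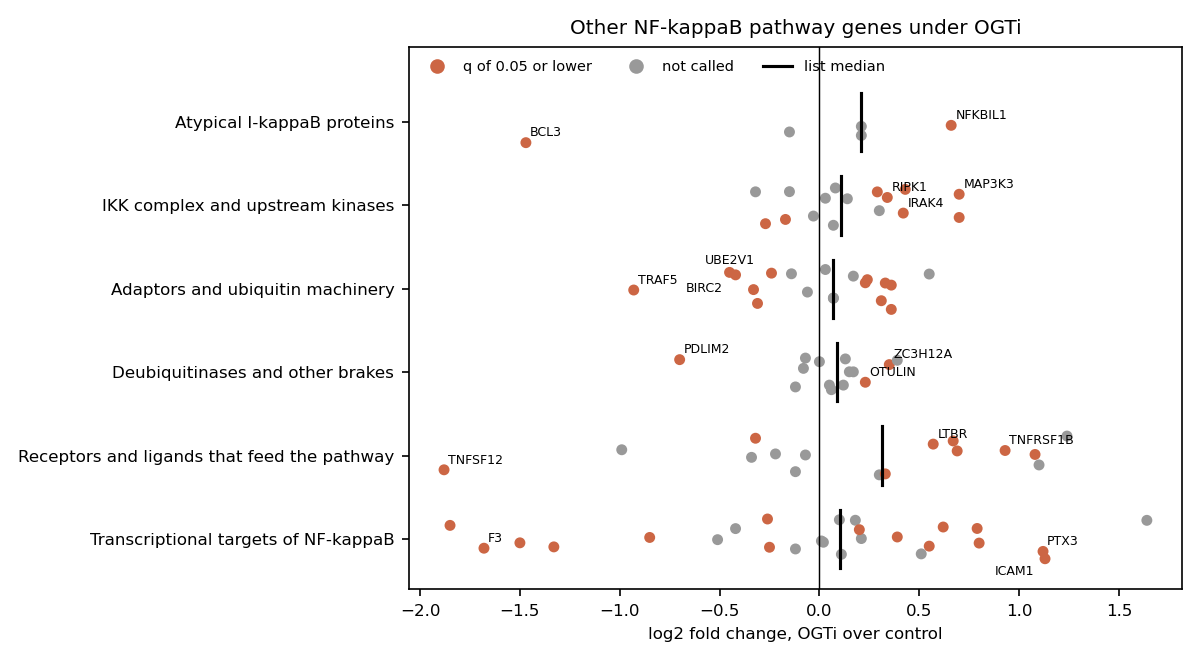
Log2 fold change (x axis) of the 96 other pathway genes with a q, in 6 rows by role, with called genes in orange, uncalled genes in grey and the median of each row as a black line. Called genes stand on both sides of 0 in every row, from TNFSF12 at -1.88 to ICAM1 at 1.13.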

How the data were processed

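LX-2 libraries were made from oligo-dT-selected RNA with a stranded protocol and sequenced from both ends. The authors aligned reads to hg38 with Bowtie2 2.3.5.1 and counted them per gene with RSEM 1.3.1, and the deposited values are expected counts, in which a read with several alignments is shared between genes. This sharing makes counts of genes with close copies uncertain, and among the genes named it gave fractional values in 2 or more libraries for REL, IRAK4, UBE2V1, TNFRSF1B, OTULIN, TRAF5 and TNFSF12. The deposited comparison table, made with DESeq2 1.36.0, holds fold changes and p-values and was not used.

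After rounding to integers, the 14895 genes with at least 10 counts summed over the 8 libraries were compared in R 4.3.3 with DESeq2 1.42.0, with replicate number as a block, median-of-ratios size factors, independent filtering and no shrinkage. Intervals are 95% Wald intervals. Pairing by replicate number was taken from the methods of the study. Deviations from the group mean correlated at 0.166 to 0.382 between libraries of the same number (Pearson, 12262 genes of at least 1 CPM, which are not independent replicates). Control replicate 3 correlated more with OGTi replicate 4 (0.343) than with OGTi replicate 3 (0.166). Control replicate 4 correlated at 0.304 with OGTi replicate 4 and at 0.228 with OGTi replicate 3. These values do not bear out the pairing of replicates 3 and 4. Any 2 libraries of a group differed by more than counting error. Alternatives were edgeR 4.0.16, other model terms, scalings and filters, and leaving out each replicate number. The fits were also run on counts simulated without a replicate effect, a setting that cannot test the replicate block.

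TPM used canonical GENCODE 44 transcript lengths, available for 94.0% of genes, and the isoforms in use in these cells are not known. Positions are from the same annotation on hg38. Named pathway genes were, per list, the 3 called genes with the largest absolute Wald statistic and a mean of at least 50 normalized counts in a group. The genes and lists were chosen with earlier results of these data known, so no p-value over a list is given.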

Additional observations from a re-analysis of the deposited data

Results flagged for a closer look

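Dixon's test was applied to each group of 4 libraries for the genes named and the ratios between them, and 4 of 62 groups passed, where chance alone gives about 1 in 20. NFKBIA made up 44.3% of inhibitor TPM in OGTi replicate 2, while the remaining 3 OGTi libraries lay at 53.0% to 53.5%, and this gap was 0.947 of the group's range. The other flagged values belong to genes outside the core group. PDLIM2 was at 1243 normalized counts in control replicate 1 and at 768 to 796 in the other control libraries. PTX3 was at 7493 normalized counts in OGTi replicate 1 and at 5338 to 5531 in OGTi replicates 2 to 4. F3 was at 2562 in OGTi replicate 1 and at 4176 to 4475 in replicates 2 to 4.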

How the results depend on the processing

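Over 7 other tests, model terms, scalings and filters and 4 fits that each left out a replicate number, NFKBIE kept its direction and its call, and none of the 8 uncalled genes of the core group was called. The number of called genes of the core group was 1 to 2 when a replicate was left out, since NFKBIA lost its call without replicate 2 or 4 (log2 fold change -0.37 to -0.22 over the 4 fits). NFKB2 ranged from -0.01 to 0.26 in these fits (-0.0088 without replicate 1) and TNFAIP3 from -0.23 to 0.17, and without the replicate block TNFAIP3 stood at -0.0015 (DESeq2 q of 0.996). Leaving out a replicate gave 1 to 2 falls among the IKK complex and upstream kinases, 3 rises in every fit among adaptors and ubiquitin enzymes and 0 to 1 rises among the brakes, and each of these fits has fewer samples. Without the replicate block, 0 falls of the IKK complex and upstream kinases were called with DESeq2 and 0 with edgeR, against 2 with the block. The block changed no call of the core group. As CPM, not divided by length, RELA made up 77.5% (control) and 75.7% (OGTi) of the subunits and NFKBIE 13.8% and 27.9% of the inhibitors. Over all genes, 6541 were called, with 5127 to 5690 when a replicate was left out and 7074 with edgeR and the block. REL, BIRC3 and RELB had the lowest counts and the widest intervals of the core group.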
